A study of Mus musculus with 29 samples.

Results

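Integrin and laminin genes were examined for peaks of 24 HA-tagged transcription factor constructs expressed in NIH-3T3 cells, an established line of mouse fibroblasts. The genes were chosen by symbol alone from the protein-coding genes of GENCODE vM21 on GRCm38, which is the mm10 build. They comprise every gene named Itga or Itgb followed by a number, a letter or both, together with every gene named Lama, Lamb or Lamc followed by a number. The rule gave 38 of 21938 protein-coding genes, with 27 integrin genes and 11 laminin genes. A peak was counted for a gene when it overlapped by at least 1 bp the gene body or the 20 kb on either side of it, a stretch called the window of the gene below.

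The study set binding of transcription factors to specific sites beside their association with mitotic chromosomes, and mapped binding by ChIP-seq with an antibody to the HA tag. Each factor carried 3 HA tags at its C terminus and came from a doxycycline-inducible transgene, induced overnight at 500 ng/ml, after which cells were fixed with 1% formaldehyde. The labels give 29 samples, of which 28 have a peak list and 1 is input chromatin that was not used here. The lists hold peak positions only, between 52 and 61991 peaks each, so the sequencing depth behind them is unknown.

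The 24 constructs were 21 wild-type factors, 2 mutants of FOXA1 and OCT4-HA co-expressed with SOX2-YPET, a fusion of SOX2 to a yellow fluorescent protein. The wild-type factors were BHLHB8-HA, BRACHYURY-HA, CDX2-HA, DLX1-HA, DLX6-HA, DUXBL-HA, EBF1-HA, FOXA1-HA, HLF-HA, MAX-HA, NANOG-HA, OCT4-HA, PRR3-HA, RHOX11-HA, SIX6-HA, SOX15-HA, SOX2-HA, TEAD1-HA, THAP4-HA, TOX3-HA and ZFP319-HA. The mutants, FOXA1_RR-HA and FOXA1_SW-HA, were made to weaken contacts with DNA that do not depend on its sequence. There are 2 biological replicates each of SOX2-HA, OCT4-HA, BHLHB8-HA and FOXA1-HA. The other 20 constructs have a single list and therefore no replicate error. All lists come from induced transgenes, and no expression was measured in these files, so the fibroblast label could not be checked against marker genes.

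Integrins are receptors of the cell surface made of an alpha and a beta chain, which bind the extracellular matrix or other cells and connect them to the actin cytoskeleton. Laminins are secreted trimers of an alpha, a beta and a gamma chain and are the main adhesive proteins of basement membranes. Fibroblasts attach to their matrix largely through integrins that bind fibronectin, vitronectin and collagen, whereas several other chains are known from epithelial cells or leukocytes.

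Peaks were widespread at these genes. Each of the 38 genes had a peak of at least 1 construct in its window, compared with 88.5% of all protein-coding genes. The 88.5% is not adjusted for window length. Peaks of 10 or more constructs lay in the windows of 16 genes (42.1%), compared with 16.4% of all genes. A further 14 genes had peaks of 5 to 9 constructs and 8 genes had peaks of 1 to 4. The windows of the integrin and laminin genes were longer than usual, with a median of 104 kb against 57.4 kb over all genes.

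Window length was therefore held within classes. Among windows under 75 kb, 5 of 10 integrin and laminin genes had peaks of 10 or more constructs, against 9.68% of all genes in that class. Between 75 and 150 kb the count was 5 of 16, against 24.5% of all genes, and between 150 and 300 kb it was 6 of 10, against 43.7%. Neither of the 2 genes with windows of 300 kb or more, Itga9 and Lama2, reached 10 constructs, against 50.3% of all genes that long. The count was above the share of all genes in the 3 shorter classes and below it in the longest. A peak of any construct was present at 84.7% of all genes under 75 kb and 96.6% between 75 and 150 kb. The shares were 97.7% between 150 and 300 kb and 98.7% at 300 kb or more. A peak at every integrin and laminin gene was therefore little above what all genes of these window lengths showed.

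Peak density was also higher than over all genes. Over all lists, 1201 peaks fell into the joined windows, which is 235 peaks per Mb against 149 per Mb for the windows of all protein-coding genes, a ratio of 1.59. The integrin genes held 816 of these peaks at 271 per Mb, and the laminin genes 385 at 184 per Mb. The ratio to all genes was thus 1.82 for integrin genes and 1.24 for laminin genes. These are sums over lists, in which a site bound in several lists counts once in each. Among single genes, 23 of 38 lay above the median density of all genes, 141 peaks per Mb, and the densities ran from 16.3 per Mb at Itgb2l to 1142 per Mb at Itgb3.

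**Figure D1:**
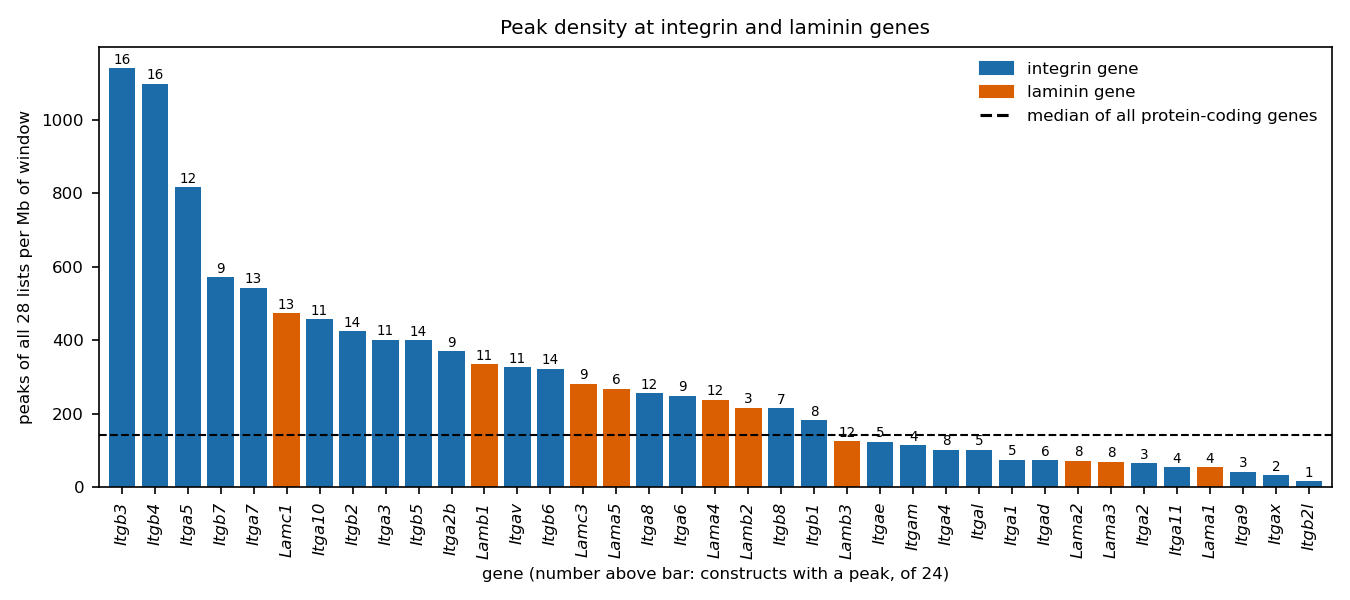
Peaks of all 28 lists per Mb of window for 37 of the 38 genes, with integrin genes in blue and laminin genes in orange. The number above a bar is the number of constructs, of 24, with a peak, and the dashed line is the median of all protein-coding genes, 141 per Mb. Itgb3 and Itgb4 stand at 1142 and 1099 per Mb, and 15 genes lie below the line.

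The highest counts belonged to a pair of integrin beta chain genes. Itgb3 (chr11:104608000-104670476, plus strand) encodes the beta chain of the platelet fibrinogen receptor and of the vitronectin receptor. It had 117 peaks of 16 constructs, and its density was rank 30 of the 21938 genes. Its window held 15 and 13 peaks in the BHLHB8-HA replicates, 13 and 2 in the SOX2-HA replicates and 5 and 2 in the FOXA1-HA replicates. Among constructs with a single list it held 11 peaks of DLX6-HA, 9 each of DLX1-HA and SIX6-HA, 8 each of CDX2-HA and EBF1-HA, and 4 each of DUXBL-HA, HLF-HA and ZFP319-HA. MAX-HA and SOX15-HA had 3 peaks each there, RHOX11-HA had 2, and BRACHYURY-HA and TOX3-HA had 1 each. TEAD1-HA, with 26 of the 38 genes occupied, had no peak at Itgb3. Of the 17 lists with at least 10 peaks in the windows, 12 had their highest count at Itgb3, and 6 of those had it at no other gene.

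Itgb4 (chr11:115974709-116008412, plus strand) encodes the beta chain of the laminin receptor of hemidesmosomes in epithelia. It had 81 peaks of 16 constructs in a shorter window, at 1099 per Mb and rank 38. It held 13 and 12 peaks in the BHLHB8-HA replicates, 6 and 3 in the SOX2-HA replicates and 2 and 1 in the FOXA1-HA replicates. DLX1-HA had 9 peaks there, EBF1-HA 7, DLX6-HA 6, and TEAD1-HA and TOX3-HA 4 each. Those 4 peaks were 4 of the 9 peaks that TOX3-HA had in all windows together. Per Mb, Itgb3 was higher than Itgb4 in 11 constructs and lower in 6, with 7 equal, so the order of this pair varied between constructs. Itgb4 exceeded Itga5, the next gene by density, in 12 constructs and fell below it in 4.

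Itgb3 and Itgb4 together held 198 of the 1201 peaks (16.5%). Their windows also contain the start of other protein-coding genes, Gm11639 for Itgb3, and Galk1 and H3f3b for Itgb4. The start nearest to the peak was the gene's own for 65.8% of the peaks at Itgb3 and 70.4% of those at Itgb4. Which gene a peak acts on was not measured.

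**Figure D2:**
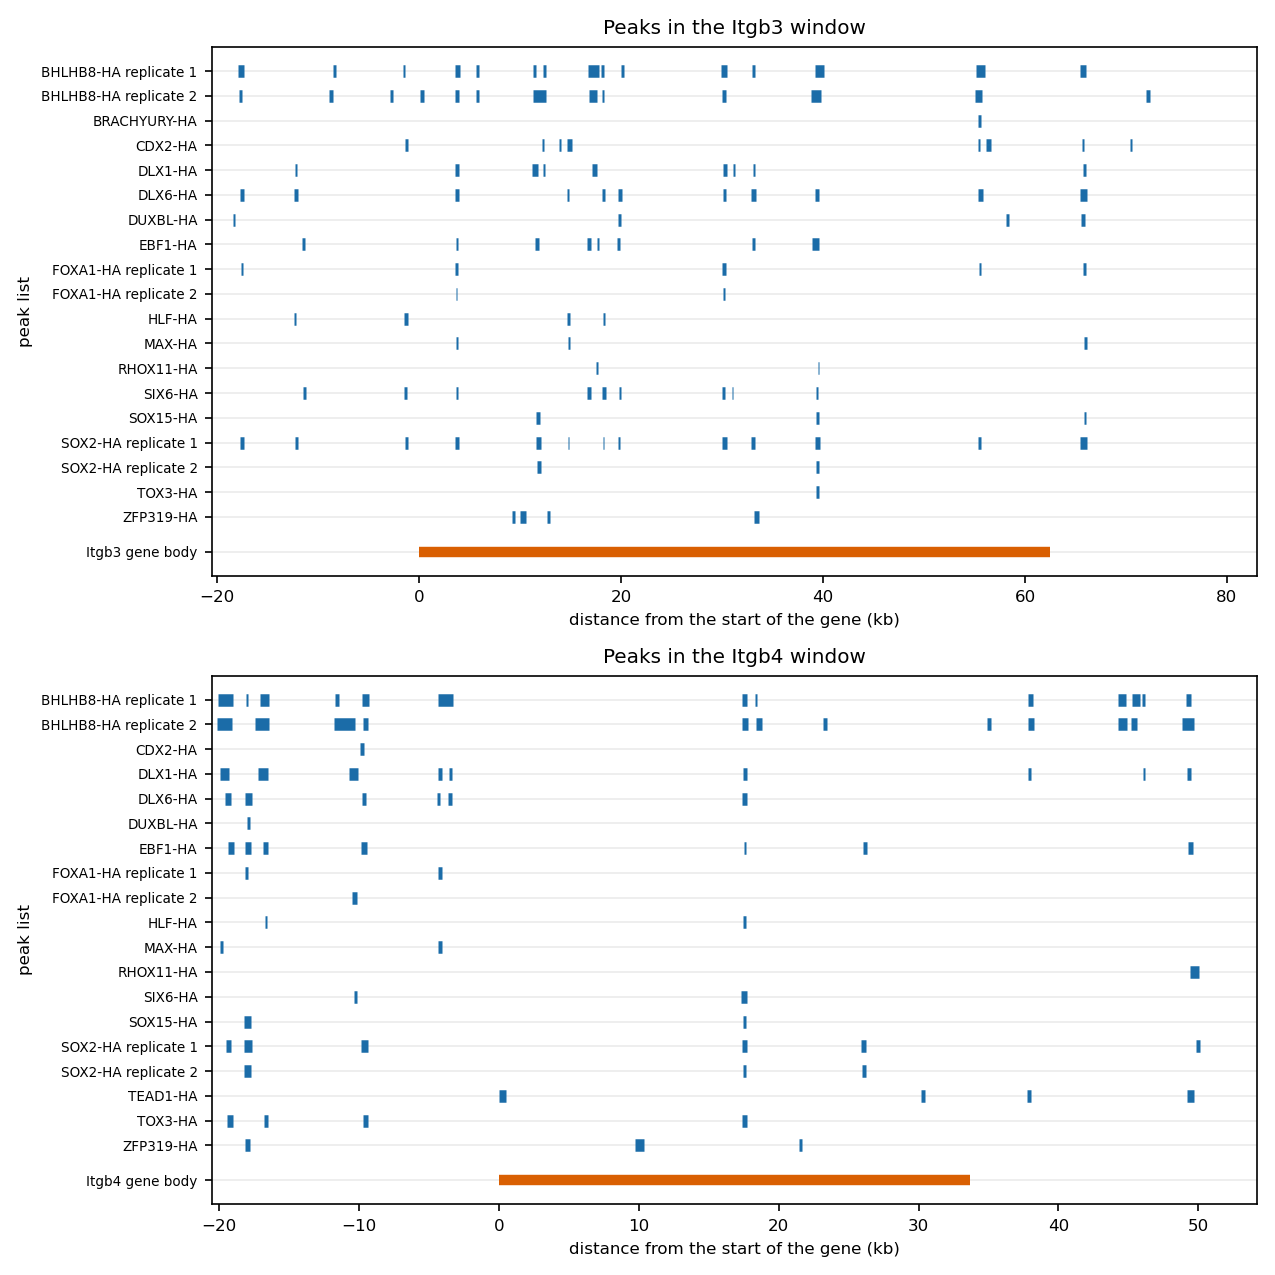
Peaks (blue) in the windows of Itgb3 and Itgb4, by list and by distance in kb from the start of the gene, with the gene body in orange. At Itgb3 peaks of up to 8 constructs line up at a series of positions along the gene body and peaks of 9 beyond its end, and at Itgb4 most lie upstream, at an intron site 17.6 kb from the start, and beyond the end.

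Peaks of different constructs coincided at both genes. After peaks that touched were merged across constructs, the Itgb3 window held 29 sites, 12 of them with peaks of 5 or more constructs, and the Itgb4 window held 20 sites, 7 of them with 5 or more. At Itgb3, 10 of these 12 sites lay in introns, between 3.74 and 55.5 kb from the start, 1 lay upstream and 1 downstream. At Itgb4, 5 of the 7 lay upstream, 1 in an intron and 1 downstream.

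For the most shared site of each gene, 200 bp centred on the median midpoint of its peaks is printed here. The constructs named are those of the whole merged site, which is longer than the stretch printed. The Itgb3 site (chr11:104673715-104673914) lies 65.8 kb from the start, beyond the end of the gene and in no other protein-coding gene. It had peaks of BHLHB8-HA, CDX2-HA, DLX1-HA, DLX6-HA, DUXBL-HA, FOXA1-HA, MAX-HA, SOX15-HA and SOX2-HA. The Itgb4 site (chr11:115992166-115992365) lies in an intron and had peaks of BHLHB8-HA, DLX1-HA, DLX6-HA, EBF1-HA, HLF-HA, SIX6-HA, SOX15-HA, SOX2-HA and TOX3-HA. Both sequences are the plus strand of GRCm38, and capitals mark matches to the motifs spelled out below.
Itgb3 site of 9 constructs: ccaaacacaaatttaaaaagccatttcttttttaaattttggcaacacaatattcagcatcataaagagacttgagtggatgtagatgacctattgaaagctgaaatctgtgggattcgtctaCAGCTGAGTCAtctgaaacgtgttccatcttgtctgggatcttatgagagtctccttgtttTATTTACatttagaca
Itgb4 site of 9 constructs: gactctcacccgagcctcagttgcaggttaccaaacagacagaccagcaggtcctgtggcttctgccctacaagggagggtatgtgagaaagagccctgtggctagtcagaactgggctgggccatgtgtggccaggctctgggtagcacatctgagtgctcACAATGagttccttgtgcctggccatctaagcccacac

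The Itgb3 site held the E-box CAGCTG, which BHLHB8 binds, overlapping the AP-1 sequence TGAGTCA, and further on the forkhead sequence TATTTAC. The Itgb4 site held ACAATG, which is CATTGT, the SOX sequence, on the other strand. Of the constructs with peaks at the Itgb4 site, SOX15-HA and SOX2-HA are SOX factors. Both sites were picked once their values were known.

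The chains that bind the RGD sequence of fibronectin and vitronectin, Itgb3 among them, were widely occupied. Of the 8 genes, 6 (75%) had peaks of 10 or more constructs, against 16.4% of all genes. Their windows were longer than usual, with a median of 122 kb against 57.4 kb. Among all genes the share was 24.5% for windows of 75 to 150 kb and 43.7% for 150 to 300 kb. The median density was 348 peaks per Mb, against 141 over all genes. Itga5, the alpha chain of the main fibronectin receptor, had 51 peaks of 12 constructs at 816 per Mb, rank 150 of all genes. BHLHB8-HA accounted for 11 and 12 of them, DLX1-HA for 7, and SOX2-HA for 4 in each replicate. Itgb5, a beta chain of vitronectin receptors, had 64 peaks of 14 constructs. Itgb6, a beta chain of epithelial cells that takes part in activating TGF-beta, had 53 peaks of 14 constructs, and 90.6% of them were nearest its own start.

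Itgav, the alpha chain shared by the vitronectin receptors, had 40 peaks of 11 constructs, and Itga8, known from kidney development and smooth muscle, had 60 of 12 constructs. At Itga8 the highest count was of CDX2-HA, with 11 peaks, against 9 and 4 of BHLHB8-HA. CDX2-HA had its highest count of all at Lama2, with 13. Itgb8, which like Itgb6 takes part in activating TGF-beta, had 26 peaks of 7 constructs. Itga2b, the platelet partner of the Itgb3 chain, had 21 of 9 constructs. Per Mb, Itgb3 was higher than Itga2b in 15 constructs, lower in 2 and equal in 7.

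Among the laminin-binding chains, Itga3, Itga7 and Itgb4 reached 10 constructs and Itga6 did not. Itga6, the usual partner of the Itgb4 chain, had 38 peaks of 9 constructs, and 7 and 17 of them were of BHLHB8-HA. It had no peak of SOX2-HA, DLX1-HA or DLX6-HA. Itgb4 exceeded Itga6 per Mb in 16 constructs and was lower in none, with 8 equal. Itga3, a laminin receptor chain of epithelia, had 29 peaks of 11 constructs. Itga7, the laminin receptor chain of muscle, had 35 peaks of 13 constructs, but only 17.1% of these were nearest to its own start, and its window holds the starts of Bloc1s1, Mettl7b and Rdh5.

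The collagen-binding chains Itga1, Itga2 and Itga11 were sparsely occupied. They had 14, 9 and 8 peaks, of 5, 3 and 4 constructs, and densities between 54.7 and 74.1 per Mb. Itga10, a chain of cartilage, had 27 peaks of 11 constructs, of which 1 was nearest its own start. Starts of 4 other protein-coding genes lie in the Itga10 window. The windows of Itga1 and Itga2 overlap, so peaks there were counted for both.

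Chains of leukocytes varied widely. Itgb2, the beta chain common to several of them, had 32 peaks of 14 constructs. It was the only gene of the 8 to reach 10 constructs, but 31.2% of its peaks were nearest its own start. Itgb7 had 32 peaks of 9 constructs at 572 per Mb, with 40.6% nearest its own start. Itgal, Itgam, Itgad and Itgae had between 8 and 12 peaks each. Itgax, which marks dendritic cells, had 2 peaks, 1 of CDX2-HA and 1 of a BHLHB8-HA replicate, and Itgb2l had a single peak, of ZFP319-HA. Itgb2l was the lowest of the 38 in peaks, constructs and density. Neighbouring windows of Itgam, Itgax and Itgad overlap.

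The remaining chains, Itgb1, Itga4 and Itga9, had no member with 10 constructs. Itgb1 encodes the beta chain that pairs with the largest number of alpha chains and is used by nearly every cell type. It had 16 peaks of 8 constructs at 183 per Mb. Itgb3 exceeded it per Mb in 16 constructs, was lower in 1 and equal in 7, and Itgb4 exceeded it in 15, was lower in 1 and equal in 8. Itga4, a chain of lymphocyte homing, had 12 peaks of 8 constructs. Itga9 had 14 peaks of 3 constructs in a window of 334 kb, which is 41.9 per Mb.

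**Figure D3:**
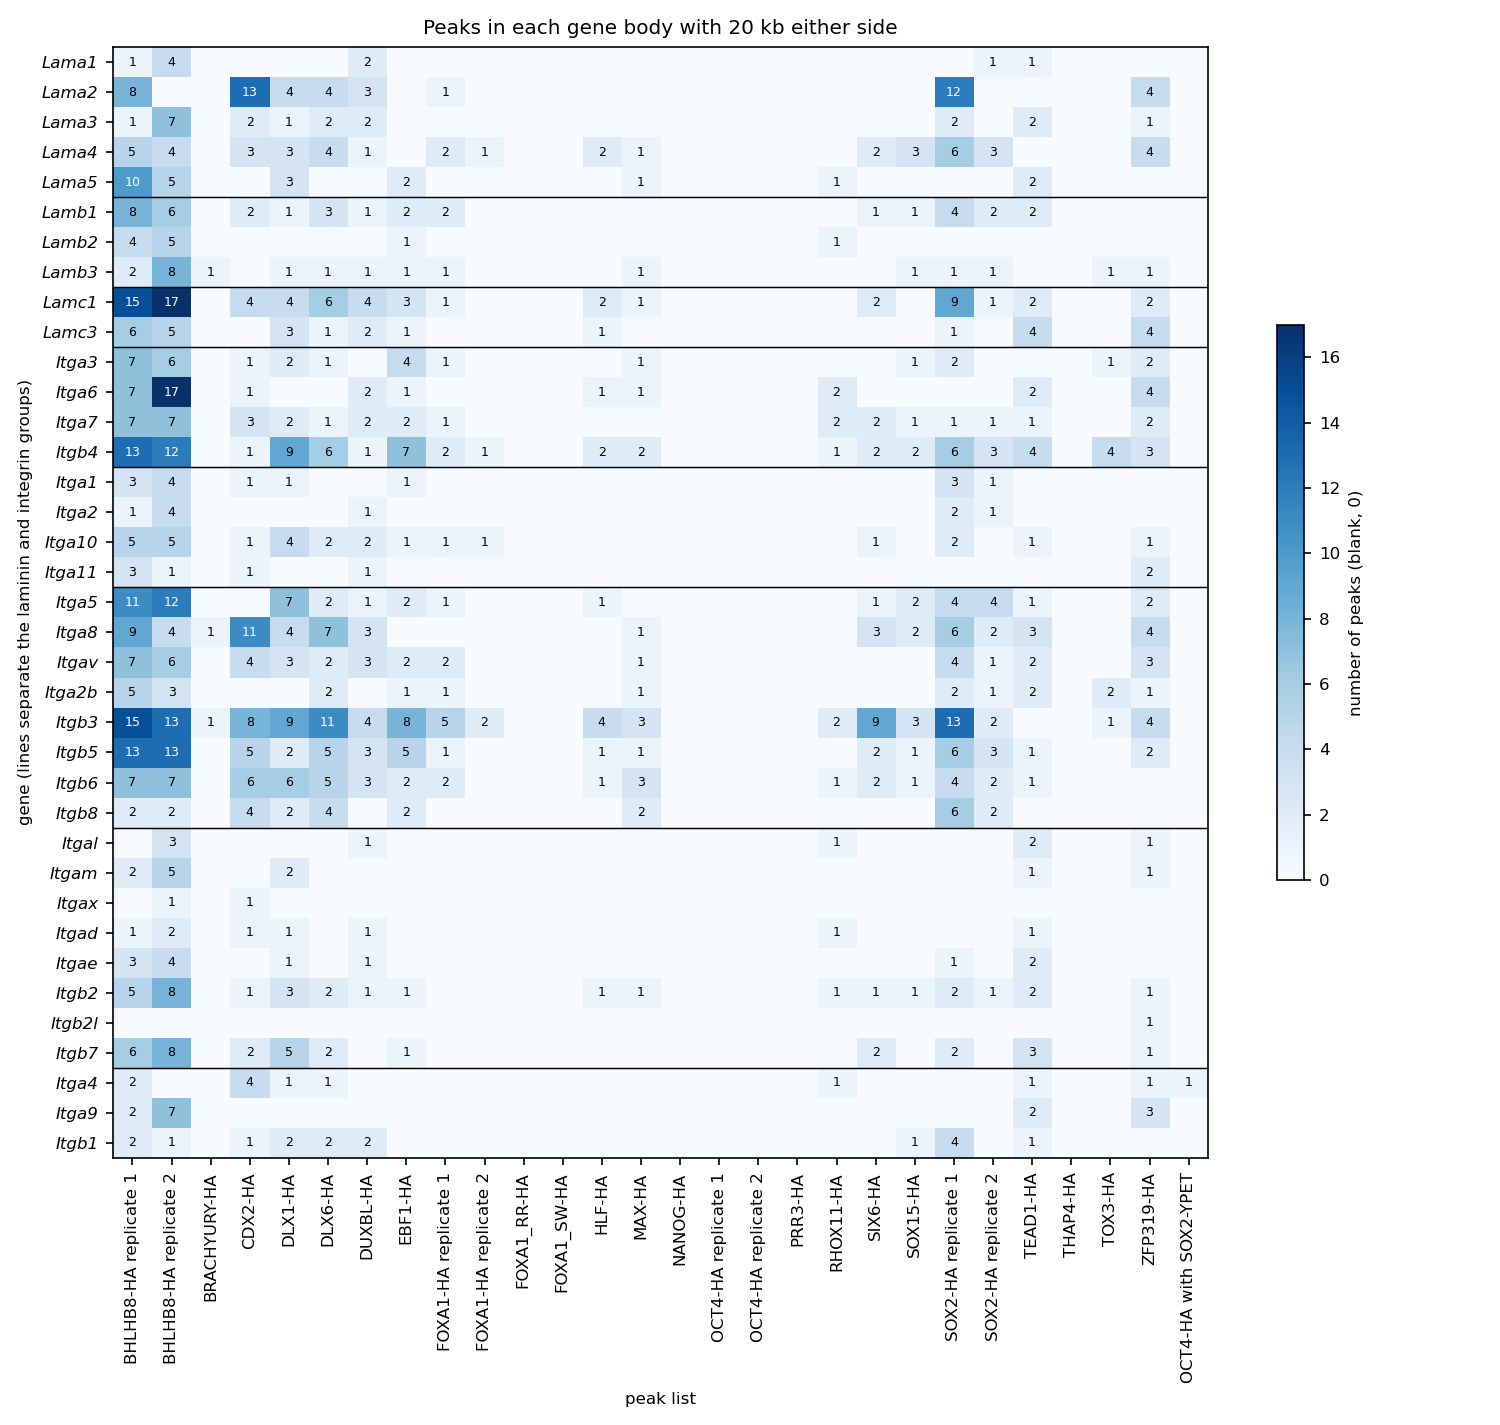
Number of peaks in the window of 37 of the 38 genes (rows, grouped by role) in each of the 28 lists (columns), with blank cells for 0. The rows of Itgb3, Itgb4, Itgb5 and Lamc1 are filled across most larger lists, the leukocyte rows are nearly empty apart from Itgb2 and Itgb7, and the columns of OCT4-HA, the FOXA1 mutants, PRR3-HA and THAP4-HA are blank.

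Among the laminin genes, the median density was 217 per Mb for the 3 beta chains and 72.1 for the 5 alpha chains. Genes are not replicates of a group, so these medians were not tested. Lamc1, the gamma chain of most laminins, had 73 peaks of 13 constructs at 474 per Mb. BHLHB8-HA had 15 and 17 peaks there and SOX2-HA 9 and 1. Lamc3 had 28 peaks of 9 constructs, but 32.1% of these were nearest its own start, and its window holds the start of Aif1l. TEAD1-HA had as many peaks there as at Itgb4, 4, its highest count. A TEAD1-HA peak in the Lamc3 window lay 9 bp from the start of Aif1l.

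Lamb1, the beta chain of the laminins made early in development, had 35 peaks of 11 constructs. Lamb3, a beta chain of epithelial laminin, had 22 of 12 constructs, but 13.6% of these were nearest its own start. Lamb2, a beta chain of kidney and of the neuromuscular junction, had 11 peaks of 3 constructs in the shortest window, 50.8 kb.

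Lama4, an alpha chain of blood vessels and mesenchymal tissues, was the only alpha chain gene with 10 or more constructs. It had 44 peaks of 12 constructs at 238 per Mb. Lama2, the alpha chain of muscle, had 49 peaks of 8 constructs in the longest window, 680 kb, and all of them were nearest its own start. CDX2-HA had 13 peaks at Lama2 and SOX2-HA had 12 in replicate 1 and 0 in replicate 2. BHLHB8-HA had 8 in replicate 1 and 0 in replicate 2. FOXA1-HA had 1 and 0, so all 3 duplicated constructs with a peak at Lama2 had it in replicate 1 only. The replicate 1 list was the longer for SOX2-HA (25049 against 5692 peaks) and FOXA1-HA (6033 against 1099). It was the shorter for BHLHB8-HA (46842 against 61991). Per Mb, Lama4 was higher than Lama2 in 11 constructs, lower in 1 and equal in 12. Lama5, the alpha chain found in most adult basement membranes, had 24 peaks of 6 constructs. Lama3, the alpha chain partner of Lamb3, had 20 peaks of 8 constructs, and Lama1, an alpha chain of the early embryo, had 9 of 4 constructs.

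In all, the 38 windows held 530 merged sites, and 57 of them had peaks of 5 or more constructs. This is 11.2 such sites per Mb against 4.42 per Mb over all genes, a ratio of 2.53. Sites of any number of constructs gave a ratio of 1.29, and sites of 10 or more, of which there were 2, a ratio of 1.32. The 57 sites lay at 21 genes, and 19 of them (33.3%) at Itgb3 or Itgb4. BHLHB8-HA and SOX2-HA each had a peak at 51 of the 57, DLX6-HA at 49, DLX1-HA at 41 and EBF1-HA at 31. TEAD1-HA had a peak at 3.

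**Figure D4:**
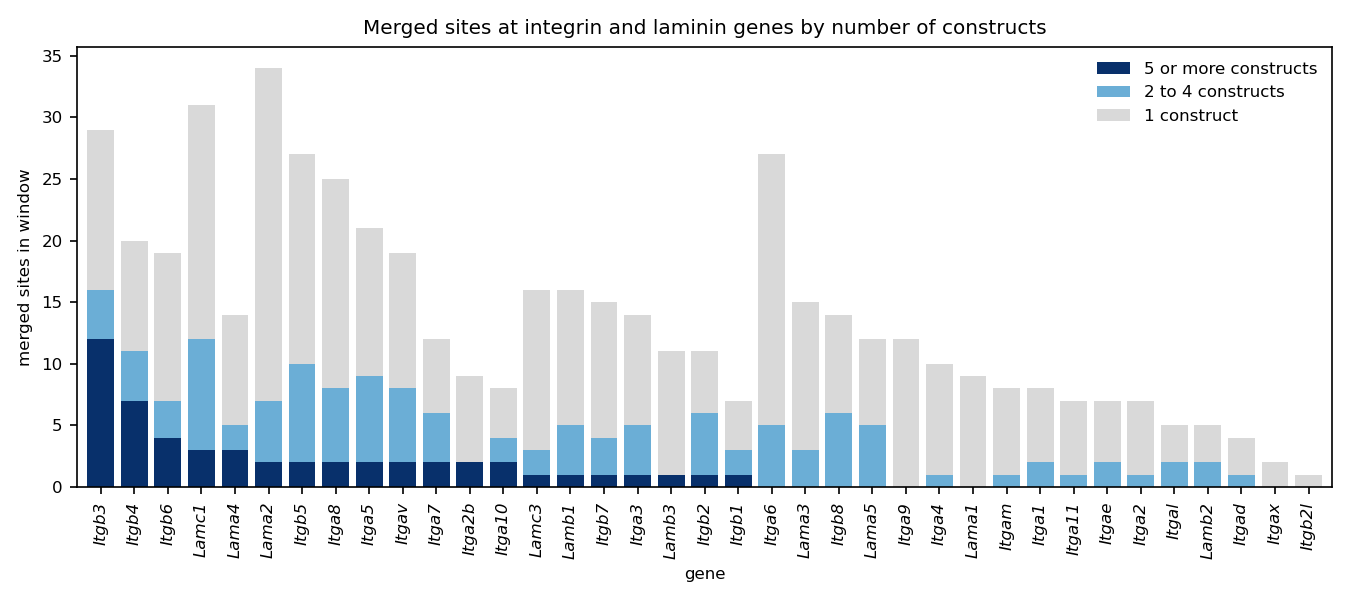
Merged sites in the window of 37 of the 38 genes, split by the number of constructs with a peak at the site. Itgb3 has 12 and Itgb4 7 sites of 5 or more constructs, and the 34 sites of Lama2 include 2.

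The 2 sites with peaks of 10 constructs, and a site tied with others at 9, are shown for their sequence. The Lamb3 site (chr1:193189318-193189517) lies 18.3 kb upstream of the nearest Lamb3 start, within the neighbouring gene Traf3ip3. It had peaks of BHLHB8-HA, BRACHYURY-HA, DLX1-HA, DLX6-HA, EBF1-HA, FOXA1-HA, MAX-HA, SOX15-HA, SOX2-HA and TOX3-HA. The Lama4 site (chr10:38994763-38994962) lies in an intron, 29.3 kb from the nearest start, and had peaks of BHLHB8-HA, CDX2-HA, DLX1-HA, DLX6-HA, DUXBL-HA, FOXA1-HA, HLF-HA, SIX6-HA, SOX15-HA and SOX2-HA. The Itga8 stretch (chr2:12168982-12169181) lies in an intron, within a merged site (chr2:12168562-12170738) with peaks of 9 constructs. The peaks of DLX1-HA, DUXBL-HA, SIX6-HA and ZFP319-HA at that merged site lie outside the 200 bp printed. Each line gives 200 bp of the plus strand centred on the median midpoint of the peaks, with matches in capitals. The constructs named are those of the whole merged site, which is longer. Shares over all merged sites, given below, use the middle of each site instead.
Lamb3 site of 10 constructs: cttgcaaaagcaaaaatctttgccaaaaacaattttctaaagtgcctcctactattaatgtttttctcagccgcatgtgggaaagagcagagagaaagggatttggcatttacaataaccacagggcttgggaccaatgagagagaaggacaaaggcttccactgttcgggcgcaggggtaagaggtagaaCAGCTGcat
Lama4 site of 10 constructs: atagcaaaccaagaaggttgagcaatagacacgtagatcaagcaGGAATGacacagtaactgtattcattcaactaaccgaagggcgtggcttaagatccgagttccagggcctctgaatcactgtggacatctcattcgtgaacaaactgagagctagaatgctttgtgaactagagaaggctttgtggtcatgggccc
Itga8 site of 9 constructs: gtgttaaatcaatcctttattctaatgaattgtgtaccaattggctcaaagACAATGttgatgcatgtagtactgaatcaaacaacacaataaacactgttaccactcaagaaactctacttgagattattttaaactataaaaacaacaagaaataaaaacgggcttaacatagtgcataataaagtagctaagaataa

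These 3 windows held few matches to the 10 motif families searched. The Lamb3 window had a CAGCTG near its edge, the Lama4 window GGAATG, which is the TEAD sequence CATTCC on the other strand, and the Itga8 window the SOX sequence as ACAATG. TEAD1-HA itself had no peak at the Lama4 site, or at Lama4 at all. A match says only that these letters are present.

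The motifs searched on both strands were CAGCTG (E-box), CATTGT (SOX), TTTATNGC (CDX), TGTTTAC or TATTTAC (forkhead), CCCNNGGG (EBF), CATTCC (TEAD), TTACNTAA (HLF), CACGTG (MAX), TAATTA (homeobox) and TGACTCA or TGAGTCA (AP-1). Within the middle 200 bp of all 168506 merged sites of the genome, the E-box was present in 19.9%, the SOX sequence in 12.5%, the TEAD sequence in 11.7%, and the AP-1 sequence in 9.81%. The forkhead, EBF and homeobox sequences were in 6.21%, 6.17% and 5.40%, and the CDX, MAX and HLF sequences in 4.43%, 2.91% and 2.20%. In the 530 sites at integrin and laminin genes the E-box was present in 23.4%, the TEAD sequence in 14.7% and the homeobox sequence in 2.83%. Matches of different families can overlap, as the E-box and the AP-1 sequence do at the Itgb3 site.

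For 5 factors with a known sequence, the peak of a window whose match lay nearest the peak's middle is shown, in 100 bp of the plus strand of GRCm38 with that factor's sequence in capitals. The BHLHB8-HA peak at Itga2b (chr11:102445726-102445825) lies within Fam171a2 and holds the E-box at 2 positions. The SOX2-HA peak (chr13:114951345-114951444) lies between Itga1 and Itga2, in the stretch their windows share, and holds the SOX sequence at 2 positions, once on each strand. The CDX2-HA peak at Itga8 (chr2:12214300-12214399) and the FOXA1-HA peak at Lama4 (chr10:38984498-38984597) lie in introns. The EBF1-HA peak at Itga3 (chr11:95085060-95085159) lies 8.31 kb upstream of the nearest start.
BHLHB8-HA, Itga2b: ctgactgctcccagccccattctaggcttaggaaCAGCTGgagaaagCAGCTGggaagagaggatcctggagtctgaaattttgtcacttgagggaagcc
SOX2-HA, Itga1: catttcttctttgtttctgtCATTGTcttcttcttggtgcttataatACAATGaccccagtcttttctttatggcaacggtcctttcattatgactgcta
CDX2-HA, Itga8: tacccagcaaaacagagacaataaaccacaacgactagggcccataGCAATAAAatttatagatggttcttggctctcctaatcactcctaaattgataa
FOXA1-HA, Lama4: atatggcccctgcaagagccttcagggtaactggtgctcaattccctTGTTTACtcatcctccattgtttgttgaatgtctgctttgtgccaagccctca
EBF1-HA, Itga3: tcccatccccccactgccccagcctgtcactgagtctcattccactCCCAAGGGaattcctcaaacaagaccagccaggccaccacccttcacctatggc

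Within the middle 100 bp of all merged sites these sequences were present in 11.4% (E-box), 6.24% (SOX), 2.53% (CDX), 3.19% (forkhead) and 3.18% (EBF). The site of the FOXA1-HA peak at Lama4 also had peaks of BHLHB8-HA, DLX1-HA, DLX6-HA, MAX-HA, SOX15-HA, SOX2-HA and ZFP319-HA. At the other 4 sites no second construct had a peak.

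The share of peaks with a factor's own sequence at integrin and laminin genes had an interval that held the share in the rest of the list in 12 of 13 lists. The E-box was in 43.9% of the 212 BHLHB8-HA peaks of replicate 1 (exact 95% interval 37.1 to 50.8%), against 37.8% of its other peaks, and in 39.2% of 222 in replicate 2 (32.7 to 45.9%), against 35.1%. The EBF sequence was in 42.3% of 52 EBF1-HA peaks (28.7 to 56.8%), against 39.0%. The forkhead sequence was in 40.7% of 27 FOXA1-HA peaks of replicate 1 (22.4 to 61.2%), against 37.2%. The SOX sequence was in 25.9% and 38.9% of the SOX2-HA peaks, against 27.3% and 40.6%. DLX1-HA was the exception, with the homeobox sequence in 2 of 90 peaks (2.22%, 0.270 to 7.80%), against 8.33%. Intervals cover counting error over peaks only, not the error between libraries.

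The AP-1 sequence, bound by FOS and JUN proteins, was in 206 of 1181 peaks (17.4%, 15.3 to 19.7%) of the 17 lists with at least 10 peaks in the windows, against 15.7% of their other peaks. Peaks of several lists at the same site repeat its sequence, so this interval is too narrow. Counted by merged site, the AP-1 sequence was in 10.2% of 530 sites at these genes, against 9.81% of all merged sites. The share was higher at sites of more constructs, at integrin and laminin genes as elsewhere. The sequence was in 25 of 357 sites of 1 construct at these genes, against 7.10% of such sites elsewhere. It was in 15.5% of 116 sites of 2 to 4 constructs, against 16.7%, and in 19.3% of 57 sites of 5 or more, against 24.5%. Among the 17 lists, only the TEAD1-HA interval left out the share of the list's other peaks. In TEAD1-HA the sequence was in 4 of 47 peaks (8.51%, 2.37 to 20.4%), against 1.40% of its other peaks. The remaining lists lay on either side of their other peaks.

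Promoters held few of the peaks. A promoter peak was one whose midpoint lay no more than 1 kb from a start of a coding transcript of the gene, and such peaks were present at 25 of 38 genes (65.8%), compared with 60.2% of all genes. Counted by gene and peak, 84 of 1213 pairs (6.92%) were promoter peaks, against 13.8% over all genes. Introns held 52.1%, against 37.1%, and exons 2.56%, against 2.45%. The upstream flank held 21.6% and the downstream flank 16.8%, against 22.4% and 24.2%. The gene bodies of these genes are longer than usual, so a larger intron share and a smaller promoter share cannot be told apart from gene length here.

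Either BHLHB8-HA or TEAD1-HA had a peak at each of the 25 occupied promoters, which is 65.8% of the genes, against 56.3% of all genes. Over all genes, 13208 had an occupied promoter, and at 12345 of them BHLHB8-HA or TEAD1-HA had a peak, so this was common everywhere. TEAD1-HA was at 14 promoters (36.8%), against 32.0% of all genes, and BHLHB8-HA at 18 (47.4%), against 46.8%, so both shares were near those of all genes. TEAD1-HA was the only construct at 7 (18.4%), against 7.95% of all genes, those of Itga8, Lamc3, Itga4, Lama5, Itga9, Itgb4 and Lama1. BHLHB8-HA was the only construct at 6 (15.8%), against 9.92%. Itgb5 had promoter peaks of 7 constructs, Itgav of 6 and Itga6 of 5. At Itgb3 only BHLHB8-HA had a promoter peak, and at Itgb6 and Lama2 no construct did. Promoter peaks made up 29.8% of the 47 TEAD1-HA peaks, against 36.8% over all genes, and 0 of 14 RHOX11-HA peaks, against 37.6%. At this number of peaks, a count of 0 allows a share of up to 21.4%, taking 3 counts as the limit.

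Constructs differed in how far their peaks favoured these genes. The ratio of peak density in the windows of the 38 genes to that in all gene windows had a median of 1.61 over the 24 constructs, and 18 constructs lay above 1. Among the 16 constructs with at least 5 peaks expected in the windows at the density of all genes, the median was 1.74 and 15 lay above 1. Without Itgb3 and Itgb4 the median over the 24 constructs was 1.35. Exact 95% Poisson intervals lay wholly above 1 in 15 of the 28 lists. Numbers of occupied genes are given below by list, for lists with at least 10 peaks in the windows and OCT4-HA with SOX2-YPET against the share of all genes. They are not adjusted for window length. The median window was 104 kb for the 38 genes against 57.4 kb over all genes, so an excess of occupied genes cannot be told apart from window length.

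**Figure D5:**
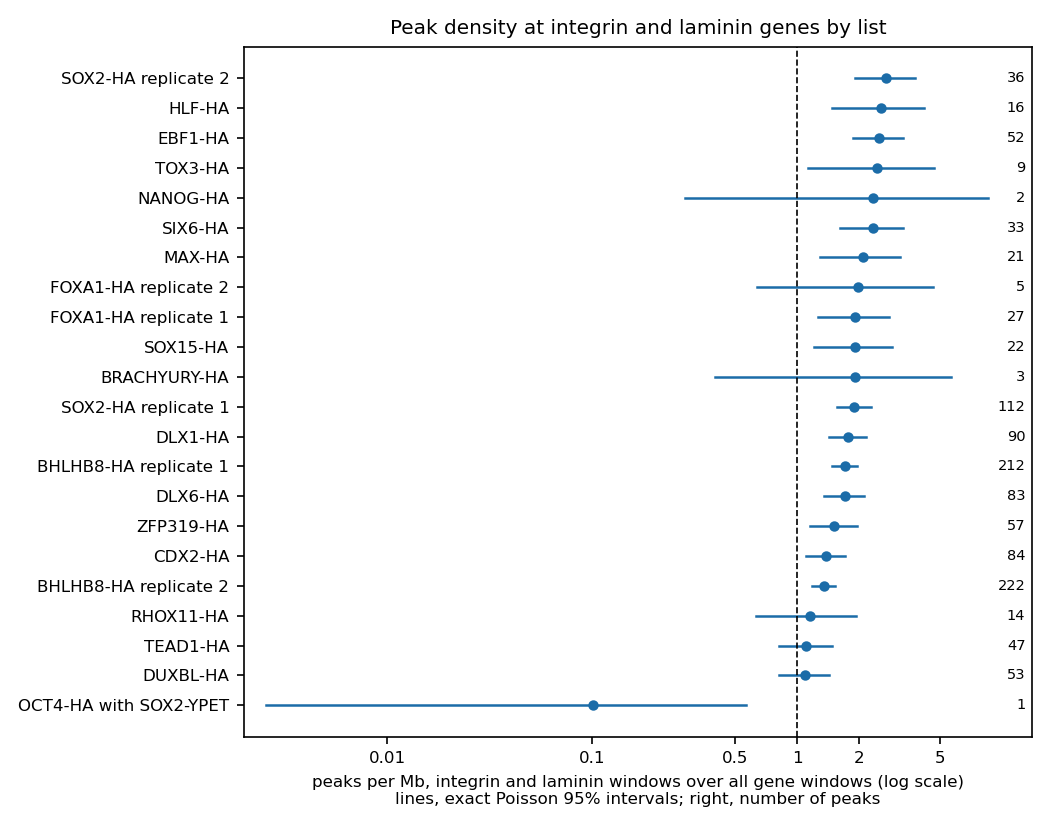
Peaks per Mb in the windows of the 38 genes over peaks per Mb in the windows of all protein-coding genes, on a log scale, for the 22 lists with a peak in the windows. Lines are exact 95% Poisson intervals, which cover counting error only, and numbers at the right are peaks. OCT4-HA with SOX2-YPET stands at 0.101, and the other lists lie between 1.10 and 2.73.

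BHLHB8-HA, a basic helix-loop-helix factor of secretory cells, gave the longest lists. It had 212 and 222 peaks in the windows, at 1.71 and 1.35 times the density of all genes. It occupied 35 of 38 genes in each replicate, against 67.9% and 78.8% of all genes. Of the genes, 33 were occupied in both replicates, Itga4 and Lama2 in replicate 1 only and Itgal and Itgax in replicate 2 only. Of its peaks in the windows, 60.8% and 55.0% overlapped a peak of the other replicate.

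SOX factors regulate development. SOX2-HA had 112 and 36 peaks in the windows, at 1.90 and 2.73 times the density of all genes, and occupied 26 and 19 genes, against 41.5% and 16.0% of all genes. Both replicates occupied 18 genes, which is 69.2% of those of replicate 1 and 94.7% of those of replicate 2. SOX15-HA had 22 peaks at a ratio of 1.93 and occupied 14 genes, against 13.7% of all genes. All 22 SOX15-HA peaks overlapped a SOX2-HA peak, against 90.2% of its other peaks.

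Homeodomain factors were mixed. DLX1-HA and DLX6-HA, factors of the developing forebrain and skeleton, had 90 and 83 peaks, at ratios of 1.77 and 1.70, and occupied 28 and 24 genes, against 46.5% and 38.1% of all genes. Of the DLX1-HA peaks 45.6% overlapped a DLX6-HA peak, against 50.7% elsewhere. SIX6-HA, a factor of the eye, had 33 peaks at 2.35 times the density of all genes, of which 9 were at Itgb3, and occupied 14 genes, against 17.5%. CDX2-HA, a factor of the intestine, had 84 peaks at a ratio of 1.38 and occupied 25 genes, against 40.7%. DUXBL-HA had 53 peaks at a ratio of 1.10, with an interval of 0.820 to 1.43, and occupied 26 genes, against 44.6%. RHOX11-HA had 14 peaks at a ratio of 1.16, with an interval of 0.633 to 1.94, and occupied 11 genes, against 23.7%. The intervals of DUXBL-HA and RHOX11-HA include 1.

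EBF1-HA, a factor of B cells and fat, had 52 peaks at 2.50 times the density of all genes (1.87 to 3.28) and occupied 22 genes, against 26.5%. Itgb3 held 8 of its peaks and Itgb4 7. HLF-HA, a PAR bZIP factor, had 16 peaks at a ratio of 2.58 and occupied 10 genes, against 9.48%, with 4 peaks at Itgb3. MAX-HA, the partner of MYC, had 21 peaks at a ratio of 2.09 and occupied 15 genes, against 14.5%. TOX3-HA had 9 peaks at a ratio of 2.46, with an interval of 1.12 to 4.67. With SIX6-HA, these had the highest ratios among constructs with a single list, apart from NANOG-HA with 2 peaks.

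TEAD1-HA, which is the DNA-binding partner of YAP, had 47 peaks at a ratio of 1.11, with an interval of 0.816 to 1.48 that includes 1. It occupied 26 genes, against 55.5% of all genes. Of its peaks 48.9% (34.1 to 63.9%) overlapped a BHLHB8-HA peak, against 28.9% of its other peaks. ZFP319-HA, a zinc finger protein, had 57 peaks at a ratio of 1.52 and occupied 26 genes, against 42.8%. Of its peaks 26.3% (15.5 to 39.7%) overlapped a BHLHB8-HA peak, against 18.3%.

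FOXA1-HA, a forkhead factor of endoderm, had 27 and 5 peaks in the windows, at ratios of 1.93 and 1.97. Replicate 1 occupied 16 genes, against 17.0% of all genes. The 4 genes occupied in replicate 2 were all among them, and the share of all genes was not computed for replicate 2. Of the 5 peaks of replicate 2, 4 overlapped a peak of replicate 1. Both mutants had 0 peaks in the windows, where 0.350 peaks for FOXA1_RR-HA and 0.328 for FOXA1_SW-HA would be found at the density of all genes. On the log2(peaks + 1) scale wild type exceeded the mutants by 3.70, and the groups did not overlap. The whole lists differed too, with 6033 and 1099 peaks in wild type against 151 and 147 in the mutants. The difference was therefore not shown to be particular to these genes. The exact two-sided permutation test of 2 lists against 2 gave p = 0.333, the smallest value the design allows. With 151 and 147 peaks in the mutant lists, a preference of the mutants for these genes was not detectable at this depth.

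OCT4-HA, a POU factor of pluripotent cells, had 0 peaks in the windows in both replicates, where 0.221 and 0.111 would be found at the density of all genes. With SOX2-YPET, OCT4-HA had 5146 peaks and 1 of them fell into the windows, where 9.86 would be found at the density of all genes. The ratio was 0.101, with an interval of 0.00257 to 0.565. The peak lay 13.8 kb upstream of Itga4 and overlapped no peak of another construct. This list occupied 1 of 38 genes, against 10.4% of all genes, and it was the only one of the larger lists with a ratio under 1. It is a single library, and the precipitated tag was that of OCT4-HA. PRR3-HA and THAP4-HA, with 62 and 58 peaks, had none in the windows, and BRACHYURY-HA had 3.

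Over joined windows, integrin genes held more peaks per Mb than laminin genes. The ratio of these densities was above 1 in 17 of the 18 constructs for which it could be formed, with a median of 1.50. It was 1.29 and 1.54 in the BHLHB8-HA replicates, 1.11 and 1.23 in those of SOX2-HA, and 1.18 and 2.78 in those of FOXA1-HA. EBF1-HA had a ratio of 2.31, MAX-HA of 2.95 and RHOX11-HA of 4.16. NANOG-HA, with 0 integrin and 2 laminin peaks, was the exception. The ratio rests in part on single genes. Without Lama2, whose long window was sparsely occupied, the median was 1.09, and without Itgb3 and Itgb4, which held 24.3% of the integrin peaks, it was 1.23. Gene by gene the families were close, with a median density of 249 per Mb for integrin genes and 238 for laminin genes. Of integrin genes, 40.7% had peaks of 10 or more constructs, and of laminin genes 45.5%, with median windows of 96.9 and 154 kb.

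Other genes of cell adhesion were counted in the same way. Of 20 genes of basement membrane and integrin signalling, 7 (35%) had peaks of 10 or more constructs, with a median density of 219 per Mb. Those were Ptk2 with 15 constructs, Parva and Tln2 with 14, Col4a2 and Lims1 with 13, Pxn with 12 and Vcl with 11. The density of Pxn, which encodes the focal adhesion protein paxillin, was 616 per Mb, and that of Fermt1, which encodes a kindlin of epithelia, was 36.8 per Mb. Of 44 collagen genes 16 (36.4%) had peaks of 10 or more constructs, and of 45 genes for matrix metalloproteases, ADAMTS proteases and their inhibitors 9 (20%) had. The share was 42.1% for integrin and laminin genes and 16.4% for all genes, so wide occupancy, unadjusted for window length, was not particular to integrin and laminin genes. Median windows were 113 kb for the 20 genes, 154 kb for collagen genes and 65.1 kb for the proteases. They were 104 kb for integrin and laminin genes and 57.4 kb for all genes. Differences between these shares cannot be told apart from window length. The pooled density was 1.24 times that of all genes for collagen genes, as for laminin genes, and 1.13 times for the proteases.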

How the data were processed

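Peak lists of 28 anti-HA ChIP-seq samples were used. The authors mapped paired reads uniquely to mm10 with STAR 2.5.3a, removed duplicates with Picard, kept the autosomes, X and Y, called peaks per sample with MACS2 2.1.1.20160309, and dropped peaks overlapping input peaks or blacklisted regions (versions, with deepTools 2.4.2, from the submitters' processing notes). The deposited files give chromosome, start and end in bp and no other value, so depth is unknown and differences in depth were not removed. Positions lay within the GRCm38 chromosome lengths. Printed coordinates count from 1.

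Peaks were counted with Python 3.11.15, NumPy 2.4.6 and SciPy 1.17.1. Sequences were read from GRCm38 with pysam 0.24.0 and plots drawn with Matplotlib 3.10.9. Duplicate lists were joined per construct for counts of constructs and averaged for densities. Peaks that touched were merged across constructs into sites. Counts of 342 windows over 9 simulated lists were checked against a direct count, with 0 differences. Wild-type and mutant FOXA1 were compared by an exact permutation test, and all else is description, with exact Clopper-Pearson or Poisson intervals. Windows, peak width, overlap rule, shared sites and replicates were varied.

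The genes, groups and lists were chosen with earlier results of these data known. Genes described in full were the 10 with peaks of most constructs (ties by density) and, for each list with at least 10 peaks in the windows, the gene with most peaks. Of the 38 genes, 1 enters the sums but is not reported here by name. Sequences shown are the 3 most shared sites and, for 5 factors, the match nearest a peak's middle, outside annotated UTRs. The third of these sites was tied with others at 9 constructs and was taken for its larger number of peaks. The Itgb3 and Itgb4 sequences were added after their values were seen.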

Additional observations from a re-analysis of the deposited data

How the results depend on the processing

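Of 76 values recomputed under alternatives for 10 results, 66 stayed within 1.5 times a count, within the spread between duplicates for a ratio or an overlap, or within the interval of a share. The FOXA1 difference was held only to its sign, which it kept, and neither density ratio crossed 1. Direction was not defined for the other results. The spread between duplicates was wide, 0.368 for the ratio to all genes and 0.661 for that of integrin to laminin genes. A fall of the latter from 1.50 to 1.09 thus counted as within the spread. The number of genes with peaks of 10 or more constructs was 8 for gene bodies alone, 10 with 5 kb either side, and 5 for peaks of at least 300 bp. The share of all genes fell with it, to 6.62%, 8.79% and 5.26%. It was 24 of 38 with 50 kb either side, against 33.4%, and 11 for peaks nearest the gene's own start, an alternative chosen after seeing the data. The number of peaks in the windows was 734 for gene bodies alone and 687 for peaks of at least 300 bp. OCT4-HA with SOX2-YPET had 0 peaks for gene bodies alone, with 5 kb either side and for peaks of at least 300 bp, and 6 with 50 kb either side, while OCT4-HA alone had 0 under every setting. The AP-1 sequence was in 25.9% of whole peaks, against 22.7% elsewhere. The ratio to all genes ran from 1.35 without Itgb3 and Itgb4 to 1.74 over constructs with at least 5 peaks expected (both chosen after seeing the data), and that of integrin to laminin genes from 1.09 without Lama2 (chosen after seeing the data) to 1.63. Leaving out each duplicate gave 15 and 16 genes with 10 or more constructs, and a FOXA1 difference of 2.58 without replicate 1 and 4.81 without replicate 2, with p = 0.333 in the exact permutation test both times. No paired analysis was possible because the FOXA1 mutants have a single list each, with no replicate number shared with the wild type. The number of peaks in a list limits what can be seen, and the 6 lists with no peak in the windows were too short to show a preference.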
